A study of Homo sapiens with 18 samples.

Results

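The 60 genes described here encode the machinery of mitosis: the cyclin-dependent kinase that starts it, the checkpoint that holds it, the kinetochore, the spindle motors, the enzymes that part the sister chromatids, condensin and the proteins of cytokinesis. They were chosen by name, as the rows of the read count table whose gene symbol stands in a list of 60, out of 58735 rows. All 60 were among the 17162 genes that passed the filter on low counts. The choice used no measured value of the libraries themselves, although earlier results on these data were known when the list was drawn up.

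RNA was sequenced from LNCaP, an androgen-responsive human prostate cancer line, in 18 libraries that form 6 groups of 3. In every group a hairpin targets HOXB13, the homeobox factor that marks the prostate lineage, and each line adds an inducible rescue construct that holds nothing (EV, the empty vector), wild-type HOXB13 (WT) or HOXB13 with T8, S31 and T41 changed to alanine (3A, a form that cannot be phosphorylated at these residues). Before treatment the cells were starved of androgen for 48 h in 2% charcoal-stripped serum, and they then spent 24 h with vehicle (0.1% ethanol) or with 10 nM R1881, a synthetic androgen. Cells lacking the hairpin were not analysed here, so each comparison is between cells that all carry it. Whether a rescue line was a pool or a single clone, and whether the 3 libraries of a group came from separate cultures, is not given in the sources used here, so p-values speak only to the scatter among these libraries, and that scatter may be technical.

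Most mitotic genes are transcribed late in the cell cycle and are nearly silent in resting cells. In resting cells the DREAM complex holds them down through a short promoter element, the cell cycle genes homology region (CHR), and in cycling cells B-Myb and FOXM1 act with the MuvB core at the same genes, often next to CCAAT boxes bound by NF-Y. Their RNA in a bulk sample therefore follows how many cells are in late cell cycle stages, and fewer cells in those stages and less RNA per cell cannot be told apart in these data.

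RefSeq promoter windows (GRCh38.p14, 250 bases before to 50 bases after the start of transcription) matched 51 of the 60 genes by symbol, with 64 windows. The CHR was searched as TTTGAA or TTCGAA and the CCAAT box as CCAAT, each on both strands and with overlaps between motifs allowed. A CHR match was found in a window of 38 of the 51 genes (74.5%), against 14.9% of the 10961 other tested genes with a window. Counted by window, 64.1% of the genes' windows held a CHR match, against 16.4% of all 35116 windows of the same length. A CCAAT box was present in 39 of 51 genes (76.5%), against 42.7% of the other tested genes, and in 70.3% of the windows, against 34.6% of all windows. Both elements together were found in 30 of 51 genes (58.8%), against 6.19% of the other tested genes. A match is a description of the letters in the window and shows no binding.

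The matches were unevenly spread over the windows. With position 0 as the first transcribed base, CHR matches were densest from -50 to -1, at 40.6 per 100 windows against 1.79 in the other tested genes, and from 0 to 49, at 21.9 against 1.53. CCAAT boxes were densest just upstream, from -100 to -51, at 67.2 matches per 100 windows against 16.7. Further upstream the CHR surplus was smaller, at 6.25 matches per 100 windows against 1.62 from -100 to -51, 6.25 against 2.15 from -150 to -101, 7.81 against 2.85 from -200 to -151 and 3.12 against 2.94 from -250 to -201.

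Promoters of 5 members whose windows hold both elements are printed to show where these lie, and they vary in their arrangement. They belong to genes that the results below turn on: a motor that pushes the spindle apart (KIF11), a motor of late division (KIF20B), the chromosome coat protein MKI67, topoisomerase TOP2A and the kinetochore protein CENPF. Each runs 5′ to 3′ on the strand of the gene from -200 to 29, and capitals mark TTTGAA or CCAAT, read on that strand or as the reverse complement, TTCAAA for the CHR and ATTGG for the box.
KIF20B: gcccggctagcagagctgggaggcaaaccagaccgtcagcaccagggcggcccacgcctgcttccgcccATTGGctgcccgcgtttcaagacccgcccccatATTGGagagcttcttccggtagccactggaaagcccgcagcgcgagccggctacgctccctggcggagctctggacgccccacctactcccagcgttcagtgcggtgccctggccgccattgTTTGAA
KIF11: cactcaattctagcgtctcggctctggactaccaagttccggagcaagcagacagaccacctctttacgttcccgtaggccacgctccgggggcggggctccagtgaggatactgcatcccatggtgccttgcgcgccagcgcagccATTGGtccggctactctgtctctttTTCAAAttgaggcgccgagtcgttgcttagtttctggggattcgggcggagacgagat
MKI67: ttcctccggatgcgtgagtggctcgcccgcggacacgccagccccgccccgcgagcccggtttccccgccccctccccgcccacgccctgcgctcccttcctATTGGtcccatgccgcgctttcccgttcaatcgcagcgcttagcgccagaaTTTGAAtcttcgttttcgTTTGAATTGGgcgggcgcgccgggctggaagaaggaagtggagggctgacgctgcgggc
TOP2A: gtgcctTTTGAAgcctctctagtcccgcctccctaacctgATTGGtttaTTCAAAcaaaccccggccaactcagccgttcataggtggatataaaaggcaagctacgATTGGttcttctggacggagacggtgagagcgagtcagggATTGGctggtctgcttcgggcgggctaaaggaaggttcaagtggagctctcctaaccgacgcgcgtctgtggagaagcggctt
CENPF: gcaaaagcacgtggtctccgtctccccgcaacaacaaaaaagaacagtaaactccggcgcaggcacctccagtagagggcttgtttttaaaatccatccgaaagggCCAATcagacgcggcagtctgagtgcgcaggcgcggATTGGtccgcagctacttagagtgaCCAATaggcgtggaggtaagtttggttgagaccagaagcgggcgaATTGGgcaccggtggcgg
The KIF20B stretch is chr10:89701390-89701619 on the plus strand, with CCAAT boxes at -131 and -98 and TTTGAA from 24 to 29, followed by a further match from 30 to 35 beyond the stretch printed. The KIF11 stretch, chr10:92592930-92593159 on the plus strand, places a CCAAT box at -53 and a CHR at -28. In MKI67, chr10:128126394-128126623 on the minus strand, a CCAAT box lies at -98 and TTTGAA stands at -47 and again at -29, where its last base is also the first base of another CCAAT box. The TOP2A stretch, chr17:40417867-40418096 on the minus strand, has CHR matches only far from the start, at -194 and -151, and CCAAT boxes at -160, -93 and -53. CENPF, chr1:214602995-214603224 on the plus strand, shows 4 CCAAT boxes at -94, -58, -33 and 12, and its TTTGAA lies from 40 to 45, beyond the stretch printed.

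Library totals ran from 22812641 to 30611980 counts. The line's own luminal markers were all detected in every group, with summed levels of 2388 to 10466 CPM. For these and the other cell type markers, CPM are counts scaled to the library total only, without TMM correction. By contrast, 3 basal markers summed to 0 to 3.28 CPM with TP63 at 0. The 6 fibroblast markers summed to 12.6 to 29.98 CPM, of which COL1A1 alone read 11.7 to 26.7 CPM and each of the others at most 1.92 CPM. Of 4 endothelial markers KDR, PECAM1 and CDH5 reached at most 0.127 CPM in any library, whereas VWF read 5.09, 3.52 and 5.75 CPM in EV, 11.4, 12.6 and 11.9 in WT and 12.8, 11.6 and 11.8 in 3A under vehicle, and 3.05 to 6.57 CPM with R1881. Mitochondrial genes took 2.71 to 5.70% of counts. From here on CPM are TMM-scaled. HOXB13 itself stood at 533 ± 33.9 CPM in EV, 536 ± 50.2 in WT and 759 ± 102 in 3A with vehicle, and at 416 ± 9.87, 347 ± 26.2 and 507 ± 71.0 with R1881 (mean ± SD, n = 3). The WT libraries thus did not stand above the EV libraries for HOXB13 RNA, and the 3A libraries did in both treatments. The part of HOXB13 level or of VWF in the results below was not tested.

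The 60 mitotic genes were lowest in EV, intermediate in WT and highest in 3A, with and without androgen. Their summed level was 1097 ± 200.2 CPM in EV, 1428 ± 75.2 in WT and 2481 ± 303 in 3A under vehicle (mean ± SD, n = 3). With R1881 it was 1236 ± 209 CPM in EV, 1866 ± 148 in WT and 2734 ± 267 in 3A. The 3 rescue states did not overlap in either treatment: the EV libraries reached at most 1246 CPM and the WT libraries began at 1341 CPM under vehicle, and with R1881 these limits were 1396 and 1696 CPM. EV library 2 was the lowest of its group in both treatments, at 869 and 1000.1 CPM.

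**Figure D1:**
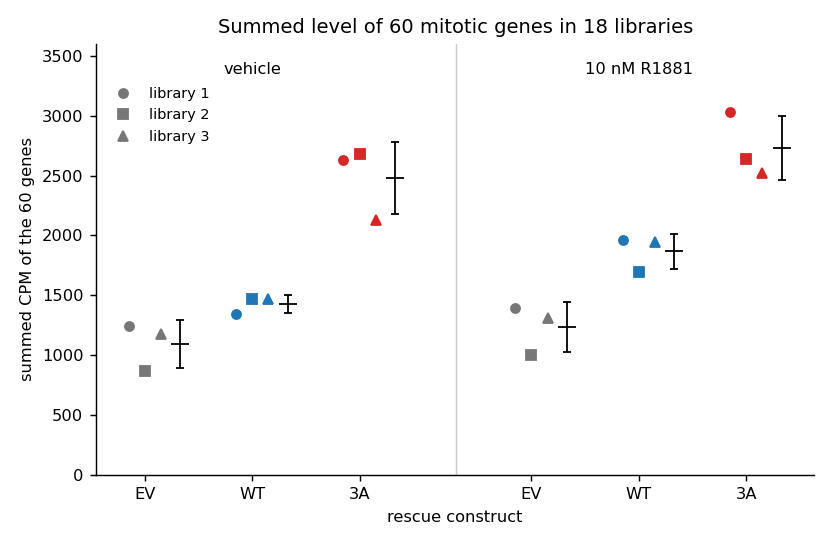
Summed TMM-scaled CPM of the 60 mitotic genes in each of the 18 libraries, by rescue construct, with vehicle on the left and R1881 on the right. Symbols give the library number, and the black bar and whiskers the mean and SD of 3 libraries. The 3 rescue states form separate steps in both treatments, from 869 to 1246 CPM in EV under vehicle up to 2525 to 3035 CPM in 3A with R1881.

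The order EV, WT, 3A by group mean held for 59 of the 60 genes under vehicle and for 59 with R1881. Among all tested genes this order was found for 21.4% under vehicle and 18.5% with R1881. PRC1, the exception in both treatments, was barely counted and is treated below. Every 3A library lay above every WT library and every WT library above every EV library for 28 of 60 genes under vehicle (0.915% of all tested genes) and for 45 of 60 with R1881 (1.31%). Across the 18 libraries the first principal component of the 60 genes held 89.4% of their variance. No such share was computed for other genes, and it does not measure the order of the rescue states.

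**Figure D2:**
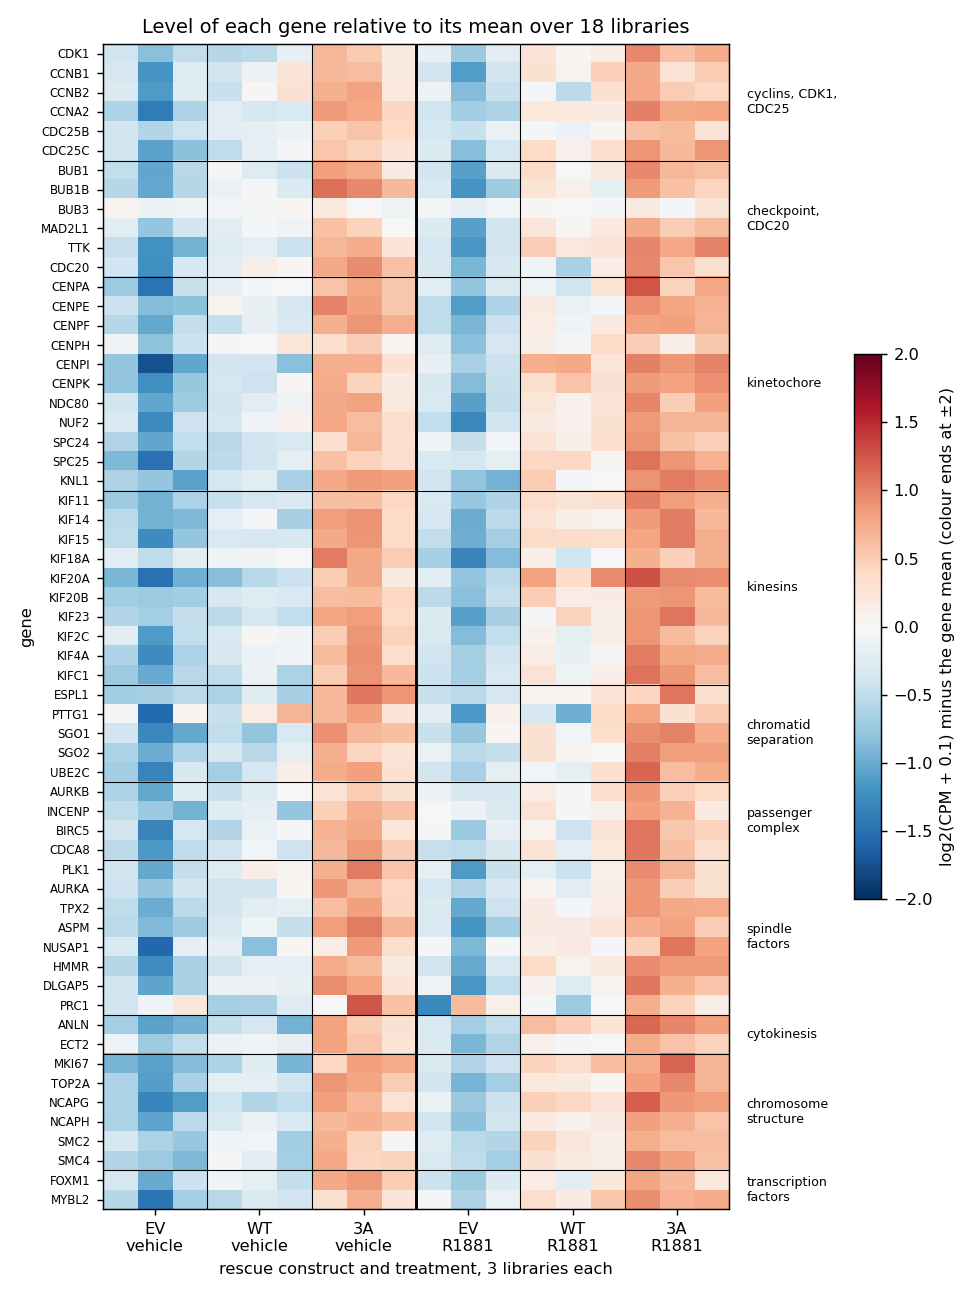
Level of each of the 60 genes (rows, ordered by role) in each of the 18 libraries (columns), as log2(CPM + 0.1) minus the mean of the gene. Colours end at 2 units below (blue) and above (red) the mean. Blue fills the EV columns and red the 3A columns in both treatments for nearly all rows, and BUB3 is pale throughout.

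Cells rescued with 3A held more mitotic RNA than cells with the empty vector in both treatments. Under vehicle 57 of the 60 genes were higher in 3A (95%) and 0 lower, against 3.97% of all tested genes higher and 3.27% lower. With R1881 again 57 were higher and 0 lower, against 4.39% higher and 4.06% lower. The median log2 fold change was 1.32 under vehicle and 1.29 with R1881, or 2.49-fold and 2.44-fold, while the median of all tested genes was 0.00 in both. These calls come from edgeR's quasi-likelihood test over all 17162 tested genes with Benjamini-Hochberg adjustment at 0.05. BUB3, PTTG1 and PRC1 were the 3 genes not called, in both treatments. The libraries of 3A and EV did not overlap for 58 of 60 genes under vehicle (13.8% of all tested genes) and for 59 with R1881 (15%). Where 1 library was left out, here and below, it belonged to a group compared. Of the 57 calls, 55 under vehicle and 53 with R1881 were kept whichever such library was left out. The exceptions were CENPH and NUSAP1 under vehicle and BIRC5, CCNB2, INCENP and NUSAP1 with R1881. CCNB2, a cyclin partner of CDK1, had an adjusted p of 0.0770 without EV R1881 library 2. NUSAP1, a spindle microtubule protein, had an adjusted p of 0.0682 to 0.210 under vehicle without EV library 1 or 2 or 3A library 2 or 3, and 0.0636 to 0.175 with R1881 without any 1 of the EV libraries or 3A library 2 or 3.

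**Figure D3:**
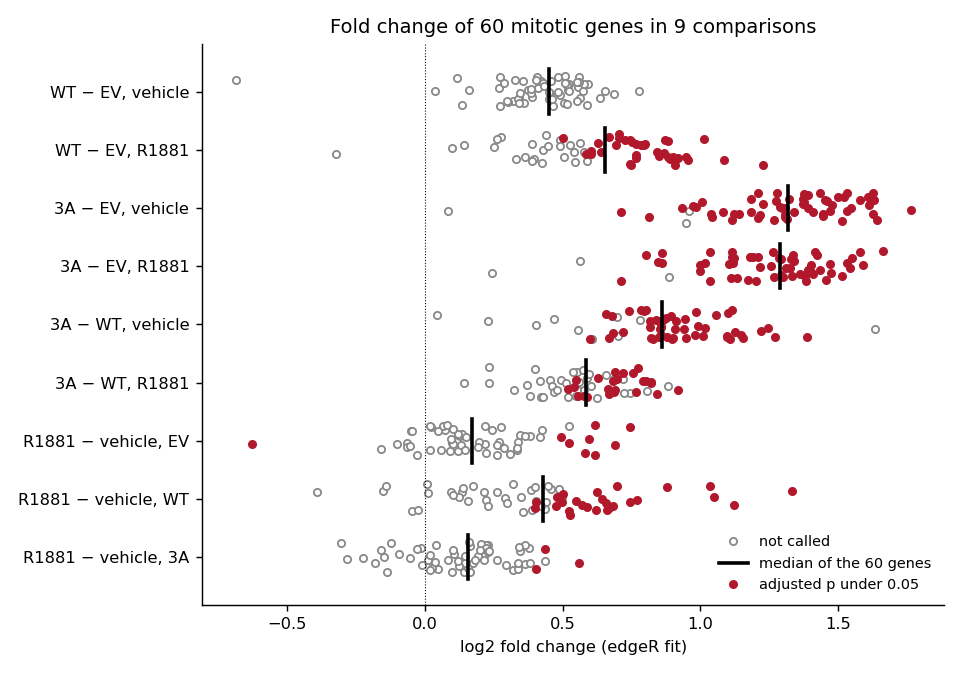
Log2 fold change of each of the 60 genes (points) in 9 comparisons, from the edgeR fit. Filled points passed an adjusted p of 0.05, open points did not, and the black bar is the median of the 60 genes. The 3A against EV rows centre at 1.32 and 1.29, the WT against EV rows at 0.45 and 0.65, and the R1881 rows of EV and 3A close to 0.

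The engine of mitotic entry is CDK1, the kinase, bound to a B-type cyclin such as CCNB1. These were also the most abundant members per transcript length, with mean deposited levels of 35.8 FPKM for CDK1 (chr10:60778331-60794852) and 35.7 FPKM for CCNB1 (chr5:69167010-69178245). Under vehicle CDK1 was at 101, 73.8 and 94.1 CPM in the EV libraries, 89.5, 92.5 and 118 in WT and 210.1, 189.7 and 152 in 3A. With R1881 CDK1 read 118, 79.4 and 115 CPM in the EV libraries, 158, 136 and 145 in WT and 257, 199.8 and 222 in 3A. The 3A libraries lay above all EV and WT libraries in both treatments, whereas EV and WT overlapped under vehicle. CDK1 rose in 3A against EV by 1.04 ± 0.16 (log2, ± SE, edgeR adjusted p = 0.00011) under vehicle and 1.12 ± 0.16 (adjusted p = 6.81e-05) with R1881. For CCNB1 the vehicle libraries read 68.3, 37.9 and 72.4 CPM in the EV libraries, 66.5, 79.9 and 103 in WT and 136, 132 and 99.4 in 3A. The R1881 libraries read 66.2, 39.9 and 66.6 CPM in the EV libraries, 107, 90.9 and 119.9 in WT and 145, 106 and 123 in 3A. Here 3A and WT overlapped in both treatments and 3A stood clear of EV, by 1.04 ± 0.22 under vehicle (edgeR adjusted p = 0.00391) and 1.12 ± 0.22 with R1881 (adjusted p = 0.0024). All 6 genes of this group, which adds CCNB2, CCNA2 and the CDC25B and CDC25C phosphatases that switch CDK1 on, were higher in 3A than in EV in both treatments.

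**Figure D4:**
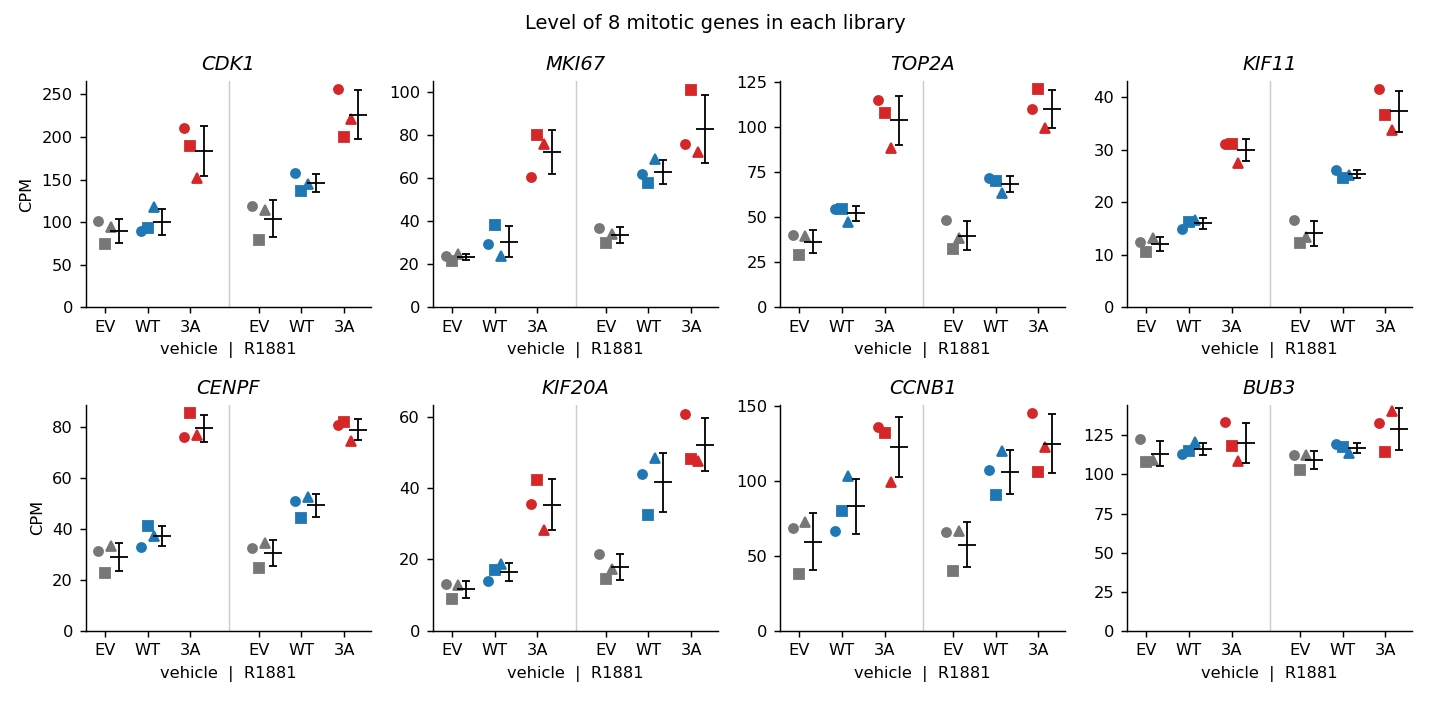
TMM-scaled CPM of 8 members in each library, by rescue construct, with vehicle left and R1881 right of the grey line. Symbols give the library number as circle, square and triangle for 1, 2 and 3, and the black bar and whiskers the mean and SD of 3 libraries. In 7 of the panels the 3A libraries stand above all EV libraries in both treatments, and BUB3 stays between 103 and 140.5 CPM throughout.

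The spindle assembly checkpoint delays chromosome separation until every kinetochore is attached, and CDC20 is the activator of the anaphase promoting complex that it restrains. CDC20 (chr1:43358955-43363203) read 33.2, 18.6 and 34.9 CPM in the EV libraries, 37.7, 47.1 and 44.8 in WT and 74.7, 84.4 and 65.8 in 3A under vehicle. With R1881 CDC20 read 34.8, 23.05 and 34.8 CPM in the EV libraries, 41.4, 27.7 and 47.6 in WT and 84.9, 63.9 and 54.7 in 3A. The 3A libraries were above all others in both treatments, and EV and WT were separate under vehicle but overlapped with R1881. The rise in 3A against EV was 1.38 ± 0.22 (log2 ± SE, edgeR adjusted p = 0.000252) under vehicle and 1.13 ± 0.22 (adjusted p = 0.00217) with R1881. BUB1, BUB1B, MAD2L1 and TTK, the kinases and adaptor of the checkpoint, were also higher in 3A than in EV in both treatments.

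BUB3, which docks the other checkpoint proteins at the kinetochore, did not follow. It read 123, 108 and 109 CPM in the EV libraries, 113, 115 and 121 in WT and 134, 118 and 109 in 3A under vehicle, with 3A and EV overlapping. With R1881 BUB3 read 113, 103 and 112 CPM in the EV libraries, 119.6, 117 and 114 in WT and 133, 115 and 140.5 in 3A, and the 3A libraries stood just above the EV libraries. The difference between 3A and EV was 0.09 ± 0.09 under vehicle (edgeR adjusted p = 0.653, 95% interval -0.11 to 0.28) and 0.24 ± 0.09 with R1881 (adjusted p = 0.113, interval 0.05 to 0.44). Both intervals end below the smallest fold change among the 57 called genes of the same comparison, which was 0.71 in each treatment.

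The centromere and kinetochore group of 11 genes tethers chromosomes to microtubules, and all 11 were higher in 3A than in EV in both treatments, with median log2 fold changes of 1.44 and 1.37. CENPF, a large outer kinetochore protein whose promoter is printed above (chr1:214603195-214664588), read 31.1, 22.7 and 33.1 CPM in the EV libraries, 33.1, 41.1 and 37.3 in WT and 76.2, 85.6 and 76.7 in 3A under vehicle. With R1881 CENPF read 32.4, 24.6 and 34.3 CPM in the EV libraries, 51.1, 44.2 and 52.4 in WT and 80.7, 81.8 and 74.3 in 3A. The 3A libraries were at least at 74.3 CPM and no EV or WT library exceeded 52.4 CPM. The fold change of 3A against EV was 1.46 ± 0.14 (edgeR adjusted p = 1.07e-06) under vehicle and 1.37 ± 0.14 (adjusted p = 2.35e-06) with R1881. SPC24, a subunit of the microtubule-binding NDC80 complex (chr19:11131520-11155808), read 13.3, 9.81 and 14.4 CPM in the EV libraries, 13.6, 15.4 and 16.3 in WT and 25.1, 32.1 and 25.4 in 3A under vehicle. With R1881 SPC24 read 19.1, 14.4 and 19.4 CPM in the EV libraries, 24.7, 21.9 and 25.2 in WT and 37.7, 30.4 and 28.1 in 3A. The 3A libraries were again above all others, by 1.14 ± 0.16 (edgeR adjusted p = 3.90e-05) and 0.86 ± 0.15 (adjusted p = 0.000955) against EV.

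CENPH, a member of the constitutive centromere network (chr5:69189548-69210357), shifted less. Under vehicle it read 21.4, 12.8 and 16.6 CPM in the EV libraries, 22.1, 22.2 and 26.6 in WT and 28.2, 31.8 and 23.2 in 3A. With R1881 CENPH read 18.7, 12.6 and 17.7 CPM in the EV libraries, 24.4, 21.8 and 29.6 in WT and 31.7, 24.7 and 32.8 in 3A. The 3A and WT libraries overlapped in both treatments and EV lay below both. Against EV the 3A fold change was 0.71 ± 0.18 under vehicle (edgeR adjusted p = 0.0161) and 0.86 ± 0.18 with R1881 (adjusted p = 0.00427). The vehicle call was lost without EV library 2 (adjusted p = 0.0859), EV library 3 (0.0658) or 3A library 2 (0.0934).

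Kinesins are motors that walk along or shorten microtubules, and all 10 were higher in 3A than in EV in both treatments (median log2 fold changes 1.38 and 1.43). KIF11, the motor that slides spindle poles apart (chr10:92593286-92655395), read 12.3, 10.6 and 13.2 CPM in the EV libraries, 14.8, 16.3 and 16.7 in WT and 31.04, 31.1 and 27.5 in 3A under vehicle. With R1881 KIF11 read 16.6, 12.1 and 13.4 CPM in the EV libraries, 26.1, 24.6 and 25.3 in WT and 41.5, 36.6 and 33.7 in 3A. The 3 rescue states did not overlap in either treatment. The 3A fold change against EV was 1.31 ± 0.12 (edgeR adjusted p = 1.07e-06) under vehicle and 1.41 ± 0.12 (adjusted p = 8.23e-07) with R1881. KIF20B, a motor of late division (chr10:89701610-89774939), read 10.3, 10.1 and 10.3 CPM in the EV libraries, 13.4, 13.9 and 13.5 in WT and 25.8, 25.9 and 22.3 in 3A under vehicle. With R1881 KIF20B read 11.5, 9.34 and 12.1 CPM in the EV libraries, 23.5, 18.6 and 18.7 in WT and 30.1, 30.9 and 26.03 in 3A. Its rescue states were separate in both treatments, with fold changes of 1.27 ± 0.12 (edgeR adjusted p = 1.18e-06) and 1.40 ± 0.12 (adjusted p = 8.23e-07) in 3A against EV.

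KIF20A, which carries the chromosomal passenger complex to the midzone (chr5:138178719-138187715), read 13.2, 8.86 and 12.8 CPM in the EV libraries, 13.8, 17.1 and 18.6 in WT and 35.6, 42.3 and 28.2 in 3A under vehicle. With R1881 KIF20A read 21.6, 14.4 and 17.3 CPM in the EV libraries, 43.9, 32.4 and 48.4 in WT and 60.7, 48.1 and 47.5 in 3A. Its highest WT library lay within the 3A range with R1881, and WT and 3A were separate under vehicle. The 3A fold change against EV was 1.61 ± 0.19 (edgeR adjusted p = 7.78e-06) under vehicle and 1.55 ± 0.19 (adjusted p = 1.67e-05) with R1881. KIF18A, which damps chromosome movements at the metaphase plate (chr11:28020620-28108308), read 4.55, 3.71 and 4.54 CPM in the EV libraries, 4.99, 5.06 and 5.38 in WT and 11.1, 9.13 and 7.60 in 3A under vehicle. With R1881 KIF18A read 3.34, 2.07 and 2.89 CPM in the EV libraries, 5.87, 4.01 and 5.29 in WT and 8.77, 7.43 and 8.81 in 3A. The rescue states were separate in both treatments, and 3A exceeded EV by 1.12 ± 0.19 (edgeR adjusted p = 0.000513) and 1.59 ± 0.20 (adjusted p = 2.72e-05).

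KIF2C, a depolymerase that corrects faulty attachments (chr1:44739818-44767767), read 18.3, 9.75 and 15.2 CPM in the EV libraries, 17.4, 21.8 and 20.4 in WT and 30.4, 39.6 and 29.7 in 3A under vehicle. With R1881 KIF2C read 17.6, 11.7 and 15.3 CPM in the EV libraries, 22.8, 18.8 and 23.4 in WT and 39.6, 33.4 and 29.7 in 3A. All 3A libraries lay above all WT and EV libraries, and the fold change against EV was 1.21 ± 0.19 (edgeR adjusted p = 0.000191) and 1.20 ± 0.19 (adjusted p = 0.000292). KIF4A, a chromokinesin (chrX:70290090-70420832), read 13.5, 8.52 and 13.2 CPM in the EV libraries, 16.6, 18.95 and 19.7 in WT and 32.2, 38.8 and 26.3 in 3A under vehicle. With R1881 KIF4A read 15.7, 12.98 and 15.7 CPM in the EV libraries, 22.9, 18.5 and 20.98 in WT and 42.1, 35.3 and 34.6 in 3A. The 3 rescue states were separate in both treatments, with 1.47 ± 0.16 (edgeR adjusted p = 3.85e-06) and 1.33 ± 0.16 (adjusted p = 1.84e-05) in 3A against EV.

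Sister chromatids part when separase (ESPL1) is freed from securin (PTTG1), which the anaphase promoting complex destroys with the help of UBE2C, while shugoshins (SGO1, SGO2) shield centromeric cohesin. ESPL1 (chr12:53268299-53293643) read 5.81, 5.93 and 6.47 CPM in the EV libraries, 6.07, 7.99 and 5.97 in WT and 14.9, 19.9 and 17.6 in 3A under vehicle. With R1881 ESPL1 read 6.90, 6.51 and 7.45 CPM in the EV libraries, 9.85, 9.71 and 11.3 in WT and 12.8, 20.04 and 11.9 in 3A. The 3A libraries stood above all others, by 1.52 ± 0.18 against EV (edgeR adjusted p = 7.78e-06) under vehicle and 1.10 ± 0.18 (adjusted p = 0.000401) with R1881. SGO2 (chr2:200510008-200583782) read 9.61, 7.39 and 9.78 CPM in the EV libraries, 11.9, 10.1 and 12.96 in WT and 24.4, 20.2 and 18.01 in 3A under vehicle. With R1881 SGO2 read 13.6, 10.2 and 10.7 CPM in the EV libraries, 18.4, 15.4 and 14.9 in WT and 29.9, 26.6 and 26.4 in 3A. Its rescue states did not overlap in either treatment and 3A exceeded EV by 1.23 ± 0.15 (edgeR adjusted p = 1.25e-05) and 1.27 ± 0.15 (adjusted p = 1.30e-05).

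UBE2C (chr20:45812576-45816957) read 16.5, 10.6 and 21.4 CPM in the EV libraries, 16.6, 21.002 and 29.03 in WT and 44.8, 47.5 and 33.2 in 3A under vehicle. With R1881 UBE2C read 20.8, 16.98 and 23.3 CPM in the EV libraries, 25.9, 23.5 and 33.9 in WT and 59.96, 41.3 and 44.8 in 3A. The 3A libraries were above all others, with 1.37 ± 0.23 (edgeR adjusted p = 0.000367) and 1.26 ± 0.23 (adjusted p = 0.00109) against EV. PTTG1 (chr5:160421822-160428744) read 31.01, 10.7 and 32.4 CPM in the EV libraries, 23.2, 35.02 and 50.6 in WT and 49.7, 55.95 and 38.3 in 3A under vehicle. With R1881 PTTG1 read 27.3, 14.2 and 33.7 CPM in the EV libraries, 25.3, 16.1 and 41.7 in WT and 54.5, 39.1 and 45.4 in 3A. EV library 2 was far below its 2 partners in both treatments, and 3A and EV did not overlap. The fold changes of 0.96 ± 0.36 (edgeR adjusted p = 0.122, interval 0.20 to 1.72) and 0.89 ± 0.37 (adjusted p = 0.143, interval 0.13 to 1.65) did not pass. With a replicate block PTTG1 passed under vehicle, at 1.10 (edgeR adjusted p = 0.0184), and with R1881, at 0.95 (adjusted p = 0.0370). PTTG1 has close copies elsewhere in the genome, as KIF4A does in KIF4B, and pseudogenes are annotated for UBE2C, AURKA, BUB1, BUB3, CCNB2, CDC20, CENPI, DLGAP5, MKI67, NCAPG, SGO1 and SMC4. Counts of these genes are uncertain where reads could be split.

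The chromosomal passenger complex (AURKB kinase, INCENP, BIRC5 and CDCA8) corrects attachments and then guides cytokinesis, and its 4 genes were higher in 3A than in EV in both treatments. BIRC5, survivin (chr17:78214186-78225636), read 34.7, 17.8 and 35.4 CPM in the EV libraries, 29.8, 41.1 and 44.1 in WT and 72.6, 76.8 and 53.2 in 3A under vehicle. With R1881 BIRC5 read 44.2, 26.7 and 39.8 CPM in the EV libraries, 47.1, 33.6 and 53.5 in WT and 93.97, 65.4 and 61.9 in 3A. EV and WT overlapped and 3A lay above both, by 1.21 ± 0.24 against EV under vehicle (edgeR adjusted p = 0.00258) and 1.0 ± 0.24 with R1881 (adjusted p = 0.0116). The R1881 call was lost without EV library 2 (adjusted p = 0.0789) or 3A library 1 (0.0605). CDCA8, borealin (chr1:37692418-37709719), read 15.5, 10.1 and 15.8 CPM in the EV libraries, 17.4, 21.5 and 16.9 in WT and 35.2, 40.5 and 31.8 in 3A under vehicle. With R1881 CDCA8 read 16.3, 15.7 and 17.98 CPM in the EV libraries, 27.2, 19.8 and 25.9 in WT and 46.9, 34.1 and 28.1 in 3A. All 3 rescue states were separate, with 1.37 ± 0.18 (edgeR adjusted p = 3.15e-05) and 1.12 ± 0.18 (adjusted p = 0.000376) in 3A against EV. INCENP, the scaffold (chr11:62123973-62153163), read 22.2, 18.9 and 16.4 CPM in the EV libraries, 26.6, 27.8 and 18.4 in WT and 43.99, 52.5 and 47.3 in 3A under vehicle. With R1881 INCENP read 31.9, 29.02 and 25.8 CPM in the EV libraries, 38.8, 30.8 and 33.6 in WT and 55.7, 51.3 and 35.3 in 3A. The gap of 3A over EV was 1.32 ± 0.17 under vehicle (edgeR adjusted p = 1.65e-05) and 0.71 ± 0.17 with R1881 (adjusted p = 0.00878), the smallest among the called genes with R1881, and that call was lost without EV library 3 (adjusted p = 0.0619).

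Of 8 spindle kinases and assembly factors, 7 were higher in 3A than in EV in both treatments, namely PLK1, AURKA, TPX2, ASPM, NUSAP1, HMMR and DLGAP5. TPX2, the activator of Aurora A on spindle microtubules (chr20:31739271-31801805), read 39.5, 28.4 and 39.2 CPM in the EV libraries, 43.3, 48.6 and 49.7 in WT and 86.6, 100.001 and 76.4 in 3A under vehicle. With R1881 TPX2 read 46.3, 27.9 and 42.3 CPM in the EV libraries, 63.6, 55.2 and 62.6 in WT and 105, 95.3 and 94.3 in 3A. Its rescue states were separate in both treatments, with 3A above EV by 1.30 ± 0.15 (edgeR adjusted p = 7.71e-06) and 1.34 ± 0.15 (adjusted p = 9.88e-06). HMMR, a spindle-associated protein (chr5:163460203-163491945), read 27.6, 17.2 and 26.1 CPM in the EV libraries, 31.8, 35.6 and 36.6 in WT and 68.4, 63.7 and 46.95 in 3A under vehicle. With R1881 HMMR read 31.6, 20.3 and 32.9 CPM in the EV libraries, 53.1, 42.7 and 46.96 in WT and 78.8, 73.9 and 73.8 in 3A. The 3 states were again separate, with 1.34 ± 0.18 (edgeR adjusted p = 2.55e-05) and 1.42 ± 0.18 (adjusted p = 2.09e-05) in 3A against EV.

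PRC1, the bundler of midzone microtubules, had only 132 counts over the 18 libraries. Its exons share 58.4% of their bases with other annotated genes, of which AC068831.7, with 491 counts, overlaps most. Its fold changes of 0.95 ± 0.59 (edgeR adjusted p = 0.383) and 0.56 ± 0.62 (adjusted p = 0.63) in 3A against EV are therefore uncertain. NUSAP1 shares 62.2% of its exon bases with other genes on the same strand, with the largest overlap in AC087721.2, which had 0 counts in all. On the opposite strand NCAPG shares 33.1% (largest overlap LCORL) and SMC4 25.6% (largest overlap TRIM59). The strand setting of the authors' counting is not given in the sources used here, so reads of such pairs may be shared or lost.

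Cytokinesis was represented by anillin (ANLN), the scaffold of the contractile ring, and ECT2, the exchange factor that activates RhoA there. ANLN (chr7:36389806-36453791) read 19.5, 14.9 and 16.1 CPM in the EV libraries, 22.7, 24.9 and 16.2 in WT and 54.8, 44.2 and 38.996 in 3A under vehicle. With R1881 ANLN read 25.3, 19.7 and 22.4 CPM in the EV libraries, 48.5, 44.2 and 37.8 in WT and 69.7, 61.9 and 55.6 in 3A. Every 3A library exceeded every other library of its treatment, with 1.45 ± 0.16 (edgeR adjusted p = 3.47e-06) and 1.47 ± 0.16 (adjusted p = 5.65e-06) against EV. ECT2 (chr3:172750682-172821474) read 35.6, 23.03 and 27.4 CPM in the EV libraries, 35.3, 36.4 and 34.2 in WT and 66.7, 56.4 and 46.6 in 3A under vehicle. With R1881 ECT2 read 31.3, 20.4 and 25.2 CPM in the EV libraries, 41.2, 37.5 and 38.03 in WT and 64.4, 56.95 and 53.03 in 3A. Again 3A lay above both other states, by 0.98 ± 0.16 (edgeR adjusted p = 0.000212) and 1.18 ± 0.16 (adjusted p = 4.55e-05) against EV.

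The 6 genes of chromosome structure, namely condensin subunits SMC2, SMC4, NCAPG and NCAPH with TOP2A and MKI67, were all higher in 3A than in EV in both treatments. MKI67, the Ki-67 antigen that coats mitotic chromosomes and is scored in tumours as a proliferation marker (chr10:128096659-128126385), read 23.7, 21.5 and 24.7 CPM in the EV libraries, 29.3, 38.1 and 23.8 in WT and 60.4, 80.1 and 75.7 in 3A under vehicle. With R1881 MKI67 read 36.8, 29.6 and 34.01 CPM in the EV libraries, 61.8, 57.9 and 68.9 in WT and 75.8, 101 and 72.1 in 3A. The 3A libraries were above all others in both treatments, and WT overlapped EV under vehicle only. Its 3A fold change against EV was 1.63 ± 0.16 (edgeR adjusted p = 1.16e-06) under vehicle and 1.31 ± 0.16 (adjusted p = 1.24e-05) with R1881. TOP2A, which untangles sister DNA and is the target of etoposide and doxorubicin (chr17:40388516-40417950), read 40.4, 28.998 and 39.7 CPM in the EV libraries, 54.7, 54.7 and 47.3 in WT and 115, 108 and 88.7 in 3A under vehicle. With R1881 TOP2A read 48.3, 32.4 and 38.5 CPM in the EV libraries, 71.7, 70.1 and 63.6 in WT and 109.96, 121 and 99.5 in 3A. All 3 states were separate in both treatments, with 1.51 ± 0.14 (edgeR adjusted p = 1.07e-06) and 1.47 ± 0.14 (adjusted p = 1.94e-06) in 3A against EV. SMC2 (chr9:104094260-104141417) read 37.1, 30.3 and 27.8 CPM in the EV libraries, 44.4, 45.4 and 29.1 in WT and 77.6, 65.2 and 48.2 in 3A under vehicle. With R1881 SMC2 read 39.6, 32.6 and 31.3 CPM in the EV libraries, 64.5, 55.5 and 50.98 in WT and 78.2, 72.3 and 72.8 in 3A. 3A again lay above both, by 1.01 ± 0.17 (edgeR adjusted p = 0.000398) and 1.11 ± 0.17 (adjusted p = 0.000184) against EV.

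The transcription factors that drive mitotic genes were themselves among the members that rose. FOXM1 (chr12:2857681-2877155) read 40.1, 25.01 and 37.4 CPM in the EV libraries, 47.7, 44.6 and 36.3 in WT and 85.2, 90.6 and 71.97 in 3A under vehicle. With R1881 FOXM1 read 37.3, 30.8 and 41.7 CPM in the EV libraries, 55.7, 43.6 and 58.8 in WT and 87.6, 79.4 and 58.2 in 3A. The 3A libraries overlapped WT with R1881 by 1 library, 3A library 3, and stood above EV in both treatments, by 1.28 ± 0.18 (edgeR adjusted p = 4.30e-05) and 1.04 ± 0.18 (adjusted p = 0.000539). MYBL2, which encodes B-Myb (chr20:43667019-43716496), read 40.7, 22.1 and 37.8 CPM in the EV libraries, 41.4, 49.5 and 46.4 in WT and 75.5, 101 and 72.3 in 3A under vehicle. With R1881 MYBL2 read 59.1, 39.7 and 55.2 CPM in the EV libraries, 77.2, 67.7 and 88.97 in WT and 116, 97.8 and 102 in 3A. Its rescue states were separate in both treatments, with 1.31 ± 0.19 (edgeR adjusted p = 6.10e-05) and 1.03 ± 0.18 (adjusted p = 0.000901) in 3A against EV.

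Cells with wild-type HOXB13 held more mitotic RNA than empty-vector cells, and the counts differed between treatments; whether the gap itself differed with androgen is tested further on. With R1881, 36 of 60 genes were higher in WT (60%) and 0 lower, against 4.66% of all tested genes higher and 4.04% lower, with a median log2 fold change of 0.65 (1.57-fold). Chromosome structure had 6 of 6 genes higher (4 to 6 over the alternative settings and libraries left out), kinesins 8 of 10 (4 to 10), centromere and kinetochore 8 of 11 (4 to 10) and the checkpoint group 4 of 6 (0 to 4). The largest called shifts were 1.23 ± 0.19 for KIF20A (edgeR adjusted p = 0.000404), 1.09 ± 0.19 for KIF15 and 1.01 ± 0.21 for CENPI. The smallest adjusted p was that of KIF20B, at 0.88 ± 0.13 (edgeR adjusted p = 0.00019), followed by KIF11 at 0.85 ± 0.12 (adjusted p = 0.000254). ANLN (0.95 ± 0.16, edgeR adjusted p = 0.000808), MKI67 (0.91 ± 0.15, adjusted p = 0.00102), TOP2A (0.78 ± 0.14, adjusted p = 0.00164) and CENPF (0.69 ± 0.14, adjusted p = 0.00301) were higher as well. WT and EV libraries did not overlap for 50 of 60 genes (15.8% of all tested genes). The count fell to 15 without EV R1881 library 2, to 23 without WT R1881 library 1 and to 21 without EV library 2 of both treatments. The 15 genes called whichever library was left out were ANLN, ASPM, CCNA2, CENPF, CENPI, CENPK, KIF11, KIF15, KIF20A, KIF20B, KNL1, MKI67, NCAPH, SMC4 and TOP2A.

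Under vehicle no member passed the test between WT and EV, against 0.647% of all tested genes higher and 0.122% lower, although 59 of the 60 fold changes were positive with a median of 0.45 (1.37-fold). By edgeR 40 genes were higher at an unadjusted p under 0.05 and 0 lower, against 4.94% and 2.43% of all tested genes. DESeq2 called 3 genes higher, edgeR with a replicate block 6 and edgeR without the filter on low counts 17. WT and EV did not overlap for 29 of 60 genes (6.30% of all tested genes). Fold changes of the members ranged from -0.69 for PRC1 to 0.78. TOP2A, at 0.52 ± 0.14, had an edgeR adjusted p of 0.114, and KIF4A, at 0.65 ± 0.17, one of 0.0803.

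Cells with the alanine mutant also exceeded those with wild-type HOXB13. Under vehicle 50 of 60 genes were higher in 3A than in WT (83.3%) and 0 lower, against 2.64% of all tested genes higher and 2.99% lower, with a median log2 fold change of 0.86 (1.82-fold). All 10 kinesins (9 to 10 over the alternative settings and libraries left out), 6 of 6 chromosome structure genes (5 to 6), 4 of 4 passenger complex genes (2 to 4) and both cytokinesis genes (1 to 2) were among them. ESPL1 had a fold change of 1.39 ± 0.18 (edgeR adjusted p = 8.00e-05), MKI67 of 1.24 ± 0.16 (adjusted p = 5.48e-05) and CENPF of 1.10 ± 0.13 (adjusted p = 4.69e-05). The 10 genes without a call included BUB3 (0.05 ± 0.09), CENPH (0.23 ± 0.18), PTTG1 (0.40 ± 0.36) and CCNB1 (0.56 ± 0.22). The libraries of 3A and WT did not overlap for 55 of 60 genes (10.2% of all tested genes), and 33 of the 50 calls were kept whichever library was left out.

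With R1881 the gap between 3A and WT was called for 24 of 60 genes (40%), all higher in 3A, against 1.41% of all tested genes higher and 1.77% lower, with a median of 0.58 (1.5-fold). Kinesins had 7 of 10 genes called (1 to 8 over the alternative settings and libraries left out), spindle kinases and assembly factors 4 of 8 (0 to 5) and the passenger complex 0 of 4 (0 to 3, with BIRC5, INCENP and CDCA8 called under a replicate block). KIF4A (0.84 ± 0.16, edgeR adjusted p = 0.00374), SGO2 (0.77 ± 0.15, adjusted p = 0.00399), CENPF (0.68 ± 0.13, adjusted p = 0.00451) and TOP2A (0.69 ± 0.14, adjusted p = 0.00629) were higher and, with CDC25B and CENPE, were the 6 calls kept whichever library was left out. MKI67 stood at 0.40 ± 0.15 (edgeR adjusted p = 0.175). The 3A and WT libraries did not overlap for 53 of 60 genes (9.29% of all tested genes). The count fell to 7 without WT library 2, 8 without 3A library 1, 12 without 3A library 2, 13 without WT library 3 and 14 without WT library 1, and rose to 39 with a replicate block and 44 without the filter on low counts.

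R1881 went with more mitotic RNA in WT cells, and fewer members were called in EV or 3A cells; the differences between these responses are tested below. In WT cells 26 of 60 genes were higher with R1881 (43.3%) and 0 lower, against 11% of all tested genes higher and 9.14% lower, with a median log2 fold change of 0.43 (1.35-fold). KIF20A rose most, by 1.33 ± 0.19 (edgeR adjusted p = 1.64e-05), followed by CENPI at 1.12 ± 0.21, MKI67 at 1.05 ± 0.16 (adjusted p = 2.99e-05) and ANLN at 1.03 ± 0.16 (adjusted p = 4.82e-05). MYBL2 (0.77 ± 0.18, edgeR adjusted p = 0.00408), KIF11 (0.67 ± 0.12, adjusted p = 0.000362), SPC24 (0.66 ± 0.15, adjusted p = 0.00352) and KIF20B (0.57 ± 0.12, adjusted p = 0.00172) rose as well. Spindle kinases and assembly factors had 0 of 8 genes called (0 to 3 over the alternative settings and libraries left out). CDC20 (-0.15) and PTTG1 (-0.39) had negative values that did not pass. R1881 and vehicle libraries of WT did not overlap for 37 of 60 genes (16.4% of all tested genes). The count fell to 13 without WT R1881 library 1 and to 17 without WT vehicle library 3, and the 10 genes called whichever library was left out were ANLN, CENPI, KIF11, KIF15, KIF20A, KIF20B, MKI67, MYBL2, NCAPG and SPC24.

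In EV cells 8 genes were higher with R1881 (13.3%, against 13.2% of all tested genes) and 1 was lower (1.67%, against 12%), so the share of members raised was close to that of all tested genes. The 8 were CENPI, INCENP, KIF20A, MKI67, MYBL2, NCAPG, SPC24 and SPC25. KIF18A was the gene that fell, with a log2 change of -0.62 ± 0.21 (edgeR adjusted p = 0.0292), and its R1881 libraries lay below its vehicle libraries as given above. None of the 9 calls was kept whichever library was left out: the count was 2 without library 2 of EV vehicle, 2 without library 1 of EV R1881 and 5 without its library 3. KIF18A itself had an adjusted p of 0.178 when EV R1881 library 2 was left out, 0.0637 for EV R1881 library 3, 0.0939 for EV vehicle library 1 and 0.0884 for EV vehicle library 3. For 9 genes the R1881 libraries of EV lay above the vehicle libraries (21.2% of all tested genes) and for 1 below (20.9%). With a replicate block ANLN (edgeR adjusted p = 0.00844) and SGO2 (adjusted p = 0.0341) were higher as well. The median log2 fold change of the 60 genes was 0.17.

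In 3A cells 3 genes were higher with R1881 (5%, against 12.4% of all tested genes) and 0 lower (against 12.1%), with a median of 0.16. They were KIF20A at 0.56 ± 0.18 (edgeR adjusted p = 0.0276), ANLN at 0.44 ± 0.15 (adjusted p = 0.0424) and SGO2 at 0.40 ± 0.15 (adjusted p = 0.0479). Their R1881 libraries lay above their vehicle libraries, which was so for 13 of the 60 genes (17.3% of all tested genes). All 3 calls were lost without 3A vehicle library 3 (adjusted p of 0.153 to 0.212), without 3A R1881 library 1 (0.122 to 0.152) or with scaling by total counts only (0.0749 to 0.151). ANLN and SGO2 were also lost without 3A vehicle library 2 (0.122 and 0.130) or 3A R1881 library 2 (0.0753 and 0.0692), KIF20A without 3A vehicle library 1 (0.0598) and SGO2 without 3A R1881 library 3 (0.0650).

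No single member was shown to respond differently to androgen between rescue states. The difference of responses had 0 of 60 genes called between WT and EV (against 0.198% of all tested genes in either direction), 0 between 3A and EV (0.0117%) and 0 between 3A and WT (0.0583%) by edgeR, and 0 in each by DESeq2. At an unadjusted p under 0.05, edgeR had 8 of 60 genes with a larger response in WT than in EV (4.37% of all tested genes), 1 with a smaller response in 3A than in EV (3.26%) and 9 with a smaller response in 3A than in WT (4.99%). MKI67 had the smallest unadjusted p of these, with a response in 3A minus that in WT of -0.84 ± 0.22 (95% interval -1.29 to -0.39, edgeR adjusted p = 0.179). KIF20A differed by 0.72 ± 0.27 between WT and EV (interval 0.16 to 1.27, adjusted p = 0.379) and by -0.77 ± 0.26 between 3A and WT (interval -1.31 to -0.23, adjusted p = 0.356). ANLN differed by 0.62 ± 0.23 between WT and EV (interval 0.15 to 1.09, edgeR adjusted p = 0.364). Without the filter on low counts 1 gene was called between WT and EV and 2 between 3A and WT. These responses share libraries between comparisons, so they are not independent of each other.

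Other genes of division, listed by function, were counted in the same fits. For 3A against EV, 3.97% of all tested genes were higher and 3.27% lower under vehicle, and 4.39% and 4.06% with R1881. Of 60 further mitosis genes, 45 were higher in 3A than in EV under vehicle and 47 with R1881, with 0 lower and medians of 1.06 and 1.0. Of 36 DNA replication genes, such as the MCM helicase and polymerase subunits, 32 and 33 were higher, with medians of 0.90 and 0.91. The list for the anaphase promoting complex, which also holds the associated genes FZR1, FBXO5 and UBE2S, had 2 and 4 of 17 genes higher. Cohesin and its regulators had 1 and 4 of 10 higher, and the DREAM and MuvB complex 2 and 2 of 11. The medians of these smaller lists lay between 0.04 and 0.33, with 0 genes lower. Without 1 library these counts were 41 to 49 and 40 to 46 for the further mitosis genes and 29 to 33 and 29 to 32 for DNA replication. The anaphase promoting complex list fell to 1 gene without EV vehicle library 1 and to 2 without EV R1881 library 2. Cohesin and its regulators fell to 1 without EV R1881 library 3. For WT against EV with R1881, 4.66% of all tested genes were higher and 4.04% lower. There 28 of the 60 further mitosis genes were higher and 2 lower, and 24 of 36 DNA replication genes were higher. These fell to 15 genes in either direction and to 14 without EV R1881 library 2.

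Members with and without a CHR match had similar medians. The 38 genes with a CHR match had a median log2 fold change of 1.36 in 3A against EV under vehicle, from 0.81 to 1.63, and the 13 genes with a window but no match had 1.31, from 0.96 to 1.76. For WT against EV with R1881 the medians were 0.70 and 0.67. The 12 genes without a CCAAT box had medians of 1.38 and 0.78 in these comparisons, against 1.34 and 0.59 in the 39 genes with one. These medians are descriptions, since members are not replicates of a condition.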

How the data were processed

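RNA-seq read counts of 18 libraries (6 groups of 3 by title) were analysed. Per the submitters' processing notes, reads were processed with HISAT2 2.0.5, featureCounts 1.5.0-p3 and hg38, in roles not stated. The deposited tables hold whole-number counts per gene and FPKM made by the authors, and gene coordinates equal GENCODE 29 for all 60 members. The strand setting of the counting is not given in the sources used here. Members and lists were chosen with earlier results of these data known.

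From the counts, genes were filtered with filterByExpr (10 counts, 15 in total), scaled by TMM and fitted in edgeR 4.0.16 (R 4.3.3) with 1 coefficient per group over all 18 libraries. The quasi-likelihood test gave 12 comparisons, adjusted by Benjamini-Hochberg over 17162 genes at 0.05, and was tested on simulated data. Printed CPM are TMM-scaled, except those of the cell type markers, which are scaled to the library total only. FPKM served only to rank levels between genes. Totals of 22812641 to 30611980 counts leave 132 counts for PRC1. Full values are given for the 2 members of each role with the highest FPKM, the called members with the 3 smallest adjusted p of each comparison, every member of a comparison with 3 or fewer calls and every member called against the majority. Motifs were matched in RefSeq promoters of GRCh38.p14. Alternatives were RLE and total-count scaling, no filter or 1 CPM in 3 libraries, own groups only, a replicate block and DESeq2 1.42.0. Each library of the groups compared was also left out in turn. The added alternative, leaving out EV library 2 of both treatments, was chosen after seeing the data.

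Replicate numbers come from the titles, and the labels name no shared day or batch. Deviations of same-numbered libraries correlated above 0.1 in every pair for 3A against EV with R1881 (0.105, 0.154 and 0.107) and for R1881 against vehicle in EV (0.163, 0.198 and 0.163). In the other comparisons checked, not every pair did. WT against EV with R1881 came close (0.0986, 0.121 and 0.158), and 3A against WT with R1881 had 0.254, 0.145 and 0.0782. Different-numbered libraries correlated at -0.102 to -0.0115 for 3A against EV with R1881 and at -0.102 to -0.0580 for R1881 in EV. They correlated at -0.112 to -0.00529 for WT against EV with R1881 and at -0.195 to 0.0625 for 3A against WT with R1881.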

Additional observations from a re-analysis of the deposited data

How the results depend on the processing

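No named member with a call changed direction under any alternative run. All 60 members passed the filter, so the filter left no member out of the counts. Of 129 named pairs of gene and comparison with a call, 86 kept it under all alternatives. The calls of 3A against EV were 54 to 56 genes with R1881 and 55 to 57 under vehicle without 1 library, and those of 3A against WT under vehicle 36 to 49. Without 1 library the other counts ranged from 15 to 37 for WT against EV with R1881, 0 to 1 under vehicle, 7 to 21 for 3A against WT with R1881, 13 to 21 for R1881 in WT, 2 to 10 in EV and 0 to 3 in 3A. Scaling by total counts only gave 5 calls for R1881 in EV and 0 in 3A, and moved the median of all genes to -0.13 and -0.14 there. Without the filter on low counts there were 17 calls for WT against EV under vehicle, 44 for 3A against WT with R1881, 1 for the difference of responses of WT and EV and 2 for that of 3A and WT. DESeq2 made 3 calls for WT against EV under vehicle. Without EV library 2 of both treatments there were 21 for WT against EV with R1881 and 3 for R1881 in EV. The cause of these changes was not tested.

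With the replicate block the counts were 6 for WT against EV under vehicle, 39 for 3A against WT with R1881 and 5 for R1881 in 3A. In the 2 comparisons where every same-numbered pair correlated above 0.1, the block gave 58 calls for 3A against EV with R1881 and 11 for R1881 in EV. It added PTTG1 in the first and ANLN and SGO2 in the second, and changed no other member call there. Beyond the counts that open this paragraph, no count of called members moved by over 1.5 times with the block. Whether libraries are paired by number in the other comparisons is not settled. For WT against EV with R1881, where same-numbered pairs correlated at 0.0986, 0.121 and 0.158, the block gave 45 calls in place of 36.

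Over all genes, higher and lower calls split 799 and 694 for WT against EV with R1881, and 1341 and 403 with total counts. The pairs were 682 and 562 against 858 and 454 for 3A against EV under vehicle, 754 and 697 against 934 and 569 with R1881, and 242 and 303 against 191 and 396 for 3A against WT with R1881. For R1881 in EV they were 2270 and 2066 against 1566 and 3072, and in 3A 2130 and 2072 against 1510 and 3178. For WT against EV under vehicle the count over all genes was 132, and it was 325 without the filter, 270 with the block, 230 with DESeq2, 64 with its own groups only and 69 without EV library 2. For WT against EV with R1881 it was 1493, and 2709 with the block, 2366 with its own groups only and 664 without EV library 2. The block gave 2072 in place of 1244 for 3A against EV under vehicle, 2409 in place of 1451 with R1881 (867 without EV library 2) and 1732 in place of 967 for 3A against WT under vehicle (527 with its own groups only). For 3A against WT with R1881 there were 545 calls, and 869 without the filter, 1046 with the block and 866 with DESeq2. R1881 in EV had 4336 calls, and 2673 without EV library 2. The difference of responses had 34 calls between WT and EV, and 226 without the filter, 133 with the block, 119 with DESeq2, 21 with its own groups only and 3 without EV library 2. Between 3A and EV there were 2 calls, and 62, 6, 5, 7 and 0 in the same order. Between 3A and WT there were 10, and 178, 96, 68 and 2 in the same order, with EV library 2 not part of that comparison. PRC1 had 132 counts in all, which limits any statement on it.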
